A study of Mus musculus with 21 samples.

Results

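Interferon-stimulated genes other than the guanylate-binding and immunity-related GTPases were followed in the mouse hippocampus, in 34 genes named one by one, all of which were among the 24411 genes of each of 2 deposited tables. One member, Mx1, is itself a dynamin-like GTPase and was kept because it was named. The series holds 21 libraries of hippocampal RNA from male wild-type mice, whose hippocampus of 1 hemisphere was taken after perfusion. In the depletion, mice aged 22 to 24 months were given, at intervals of 4 days, a CD8a depleting antibody (n = 5) or the rat isotype control IgG2b (n = 5). In the transfer, B6.SJL-Ptprca Pepcb/BoyJ recipients aged 4 months received CD8+ T cells of C57BL/6J donors aged 22 to 28 months (aged T, n = 5) or 3 to 4 months (young T, n = 6). All recipients of both transfer groups had first been given the CD8a antibody on days -11 and -7 against their own CD8+ T cells. The study asked what aged CD8+ T cells do to the young hippocampus, and what their removal does in aged mice. Replicates are libraries with their own titles. The labels do not say that each came from its own animal, so p-values measure the spread between these samples.

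Type I interferons signal through Ifnar1 and Ifnar2 to the factor ISGF3, which contains Stat2 and Irf9 and binds the interferon-stimulated response element (ISRE). Interferon gamma signals through Ifngr1 and Ifngr2 to genes that carry the gamma-activated site (GAS). The genes induced in this way restrict viruses, sense nucleic acids and feed back on the signal. In the brain microglia are among the cells known to express many of them.

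The elements named above can be read in the members' promoters. RefSeq promoter windows (GRCm38.p6, the mm10 build), from 250 bases before to 50 after a gene's start, were at hand for 25 of the 34 members. The ISRE core GAAANNGAAA, searched on both strands with overlapping matches counted, lay in the window of 14 of the 25 members (56.0%), against 3.99% of all 27025 genes with a window. The GAS letters TTCNNNGAA, which read the same on both strands, lay in 7 of the 25 (28.0%), against 9.55% of all genes. The stretches below are those of the 10 members with a core before the start, among them 5 of the members that were higher in the depletion at an unadjusted p under 0.05. Each runs 5′ to 3′ along the gene's strand, with the core or joined cores in capitals and up to 15 flanking bases. A core on the opposite strand reads TTTCNNTTTC.
Oas1a (chr5:120907526-120907560, minus strand): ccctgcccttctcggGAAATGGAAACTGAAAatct
Rsad2 (chr12:26456548-26456587, minus strand): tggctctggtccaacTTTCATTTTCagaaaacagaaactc
Bst2 (chr8:71537572-71537617, minus strand): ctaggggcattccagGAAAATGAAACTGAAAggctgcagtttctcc
Ifit3 (chr19:34583358-34583431, plus strand): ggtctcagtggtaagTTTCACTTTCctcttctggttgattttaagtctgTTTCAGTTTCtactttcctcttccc
Ifit3b (chr19:34607754-34607827, plus strand): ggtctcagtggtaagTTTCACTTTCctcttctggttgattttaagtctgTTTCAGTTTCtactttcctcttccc
Ifit1 (chr19:34640770-34640828, plus strand): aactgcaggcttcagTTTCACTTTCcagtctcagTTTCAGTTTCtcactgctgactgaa
Isg15 (chr4:156200860-156200911, minus strand): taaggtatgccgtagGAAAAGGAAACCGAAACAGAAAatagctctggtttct
Trim30a (chr7:104465205-104465244, minus strand): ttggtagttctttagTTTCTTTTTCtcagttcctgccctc
Socs1 (chr16:10785589-10785634, minus strand): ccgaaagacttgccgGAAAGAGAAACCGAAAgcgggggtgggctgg
Stat2 (chr10:128270261-128270300, plus strand): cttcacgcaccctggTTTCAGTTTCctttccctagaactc
Oas1a had its cores between 20 and 5 bases before the start, the nearest of those printed. The printed stretches of Ifit3 and Ifit3b were identical, base for base. Stat2 has a core too, 222 to 213 bases before its start, and its level is given below as 1 of the flat ones. Ifitm3, Ifih1, Ddx58 and Eif2ak2 had theirs only after the start, within the 50 bases read there. No core was found in the windows of Irf9, Irf7, Oasl2, Sp100 or Ifi35, which says only that these letters are not in these windows. Matches are a description of sequence and no measure of binding.

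Values are normalized counts, the reads of a gene divided by the authors' size factor for that library. Tests were limma-trend fits on log2(normalized count + 1) over all genes with a mean of at least 10. For weakly expressed genes these log2 differences could be smaller or larger than those of DESeq2. In the transfer limma gave -0.379 for Isg15, against -0.465 in DESeq2, and -0.933 for Usp18, against -0.67 in DESeq2. In the depletion, 29 of the 34 members passed that minimum, and Ifi44, Oas2, Mx1, Zbp1 and Socs1 did not. Oas1a and Ifi27l2a passed it only through the CD8a antibody group. In the transfer, 28 passed, without Ifi27l2a, Oas1a, Oas2, Mx1, Zbp1 and Socs1, and Ifi44 and Usp18 passed only through the young T group.

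Reads per library numbered 9957822 to 12136146 for the CD8a antibody, against 11103024 to 14375029 for IgG2b, a difference by an exact two-sided permutation test (p = 0.0238). The transfer libraries held 12361933 to 15055422 for aged T, against 11232442 to 14911138 for young T. CD8a antibody replicate 5 stood apart on the leading principal component of the depletion table (24.6% of the variance), at 57.3, against -28.2 to -9.97 for the other antibody libraries and -6.64 to 6.90 for IgG2b libraries. T cell markers were near 0 throughout, with 66 reads over 10 measured markers in the CD8a antibody libraries and 60 in the IgG2b libraries, so the hippocampal libraries cannot show whether CD8+ T cells were removed from the blood. Cd3e and Gzmk had 0 reads with the antibody, and Gzmk had 0 with IgG2b. For Cd8a itself there were 14 reads with the antibody and 10 with IgG2b.

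In aged mice most of these transcripts lay higher with the CD8a antibody than with IgG2b, but no member passed correction over all genes in limma. Of 29 members tested, 26 were higher (89.7%), against 49.6% of all 13939 genes tested, and the median log2 difference was 0.58 against -0.002 over all genes. At an unadjusted limma p under 0.05, 13 members were higher (44.8%), against 4.31% of all genes, and 0 were lower, against 4.15% of all genes. At an adjusted p under 0.05, 0 members passed, against 0.00717% of all genes. In edgeR and limma-voom 0 passed too, where the share over all genes is not given. DESeq2 on the recovered reads called 1 member higher, Irf9, against 0.214% of all genes, and 0 lower, against 0.442% of all genes. The 2 groups did not overlap for 3 members that were higher, Irf9, Ifitm3 and Ifit3b (10.3%, against 0.782% of all genes), and for 0 that were lower (1.27% of all genes). Over the 27 members with a mean of at least 10 in both groups, 24 were higher, 12 of them at an unadjusted p under 0.05, with a median of 0.54. In all 34 members, tested or not, the antibody mean was the higher in 31. For the 27 and the 34 members the share over all genes is not given.

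**Figure D1:**
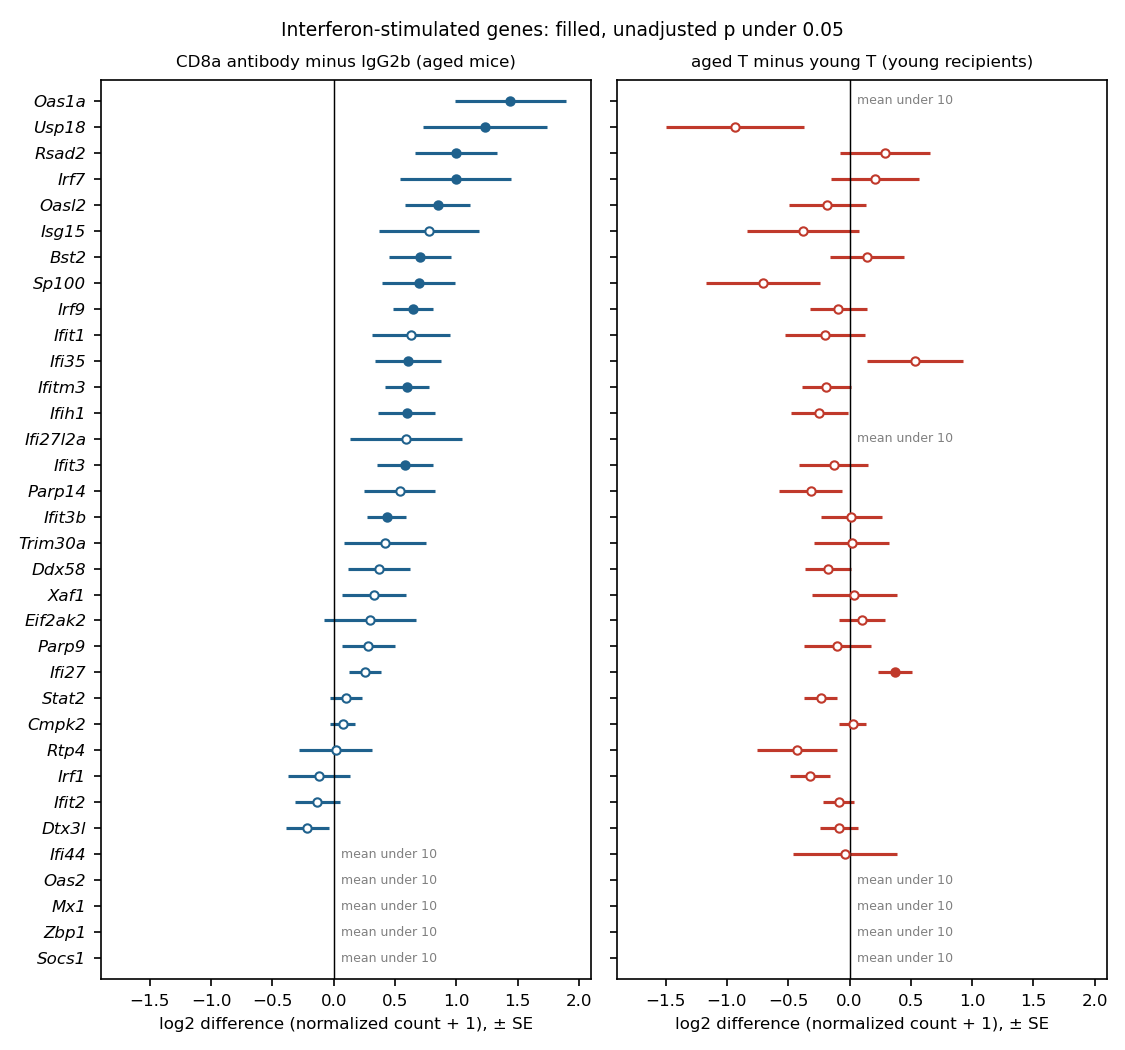
Log2 difference of each member (points, limma) with its standard error (bars), CD8a antibody minus IgG2b in the left panel and aged T minus young T in the right panel, on the log2(normalized count + 1) scale. Filled points have an unadjusted p under 0.05, which holds for 13 members on the left and for Ifi27 on the right.

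Among the signalling factors Irf9, the DNA-binding subunit of ISGF3, differed most clearly. It was at 109, 149, 134, 89.4 and 115 normalized counts in the CD8a antibody libraries, against 69.9, 81.8, 79.02, 63.7 and 80.5 in the IgG2b libraries. Every antibody library lay above every IgG2b library. The means were 119 ± 23.1 with the antibody and 75.0 ± 7.84 with IgG2b (SD, n = 5 each). The log2 difference was 0.65 ± 0.17 (SE), with an adjusted p of 0.282 in limma, 0.267 in edgeR and 0.0405 in DESeq2. Irf7, which amplifies type I interferon production, was at 23.96, 80.2, 25.7, 17.9 and 16.7 with the antibody, against 15.5, 6.505, 26.1, 16.8 and 8.59 with IgG2b (log2 1.0, limma adjusted p = 0.576). Its groups overlapped, and antibody replicate 2 alone lay above the IgG2b range. Without that library the log2 difference of Irf7 was 0.615. Stat2, the ISGF3 subunit with the transactivation domain, had 204, 235, 193, 246 and 208 with the antibody and 174, 182, 248, 204 and 212 with IgG2b. The antibody range lay inside the IgG2b range (log2 0.10 ± 0.13, adjusted p = 0.872). Irf1, a factor that interferon gamma induces, was between 49.03 and 78.2 with the antibody and between 38.9 and 98.8 with IgG2b, and all 5 antibody libraries lay below the IgG2b median (log2 -0.12, adjusted p = 0.928). Socs1, an inhibitor of the receptor kinases, stayed below the minimum, at 20.4, 2.23, 16.4, 6.703 and 4.9 with the antibody and 12.9, 4.65, 2.605, 8.38 and 8.59 with IgG2b.

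The Ifit proteins bind viral RNA through tetratricopeptide repeats, and their genes lie side by side on chromosome 19. Ifit3 was at 104, 263, 204, 187 and 131 with the antibody and 121, 152, 95.5, 94.7 and 108 with IgG2b. Antibody replicates 2, 3 and 4 lay above the IgG2b range, and replicates 1 and 5 lay within it (log2 0.58, limma adjusted p = 0.507). Ifit3b was at 79.05, 104, 94.6, 77.1 and 108 with the antibody, against 70.8, 67.8, 57.3, 67.9 and 76.2 with IgG2b, and the groups did not overlap (log2 0.43 ± 0.16, adjusted p = 0.459). The coding sequences of Ifit3 and Ifit3b were 99.1% identical (1201 of 1212 bases), and 51.2% of the 50-base stretches of Ifit3 and 45.0% of those of Ifit3b occurred in transcripts of other genes, so how their reads were divided is uncertain. Ifit1 was at 32.3, 45.7, 56.5, 49.2 and 19.6 with the antibody and 31.9, 33.5, 25.2, 20.96 and 15.03 with IgG2b, with overlap (log2 0.63, adjusted p = 0.622). Ifit2 went the other way in its mean, 163 ± 37.9 with the antibody and 176 ± 26.3 with IgG2b (log2 -0.14, adjusted p = 0.872), although 4 of 5 antibody libraries lay above the IgG2b median.

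Isg15 encodes a ubiquitin-like modifier, and Usp18 the protease that removes it and also dampens receptor signalling. Usp18 was at 26.4, 37.9, 22.6, 24.6 and 7.84 with the antibody and 2.59, 17.7, 5.21, 15.1 and 10.7 with IgG2b. Antibody replicates 1 to 4 lay above all IgG2b libraries and replicate 5 lay within their range (log2 1.24 ± 0.51, limma adjusted p = 0.522). Isg15 was at 28.8, 33.4, 18.5, 12.3 and 13.7 with the antibody, against 5.18, 23.2, 12.2, 11.7 and 9.66 with IgG2b. All 5 antibody libraries were above the IgG2b median, 2 of them above the IgG2b range (log2 0.77, adjusted p = 0.640).

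Sensors of RNA and the enzymes of the 2-5A system, which activate RNase L, made up 7 members, of which 5 were tested and all 5 were higher. Oas1a, a 2-5A synthetase, was at 13.2, 26.7, 14.4, 14.5 and 18.6 with the antibody and 6.04, 4.65, 1.74, 6.71 and 13.9 with IgG2b. Its log2 difference was 1.44 ± 0.45 (limma adjusted p = 0.362), with 4 antibody libraries above the IgG2b range, and it was tested only because its antibody mean was over the minimum. It also shared 57.6% of its 50-base stretches with Oas1g. Oasl2, a 2-5A synthetase-like protein, was at 76.7, 107, 108, 61.5 and 40.2 with the antibody and 42.3, 43.7, 31.3, 51.97 and 36.5 with IgG2b (log2 0.85 ± 0.27, adjusted p = 0.362). Again antibody replicate 5 fell inside the IgG2b range and the other antibody libraries lay above it. Ifih1, the sensor of long double-stranded RNA known as MDA5, was at 86.2, 93.6, 96.6, 73.7 and 45.1 with the antibody and 69.1, 42.8, 57.3, 41.9 and 45.1 with IgG2b, with replicate 5 equal to an IgG2b library to 3 digits (log2 0.60, adjusted p = 0.5001). Ddx58, the sensor RIG-I, averaged 72.4 ± 25.7 with the antibody and 53.8 ± 10.3 with IgG2b (log2 0.37, adjusted p = 0.725). Eif2ak2, the kinase PKR, ranged from 29.4 to 196 with the antibody and from 48.3 to 93.2 with IgG2b (log2 0.30, adjusted p = 0.861). The 2-5A synthetase Oas2 averaged 5.69 with the antibody and 3.91 with IgG2b, and the Z-form nucleic acid sensor Zbp1 3.47 with the antibody and 2.94 with IgG2b, both under the minimum.

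Membrane proteins that restrict virus entry or release were among the higher members. Ifitm3, which blocks fusion of viruses with endosomes, was at 131, 176, 227, 137 and 151 with the antibody, against 123, 130, 95.5, 82.99 and 106 with IgG2b. The lowest antibody library lay just above the highest IgG2b library (log2 0.60 ± 0.18, limma adjusted p = 0.335). Bst2, the tetherin that holds budding virions, was at 87.4, 126, 133, 50.3 and 73.5 with the antibody and 72.5, 52.04, 43.4, 55.3 and 50.5 with IgG2b. Its antibody replicate 4 was below 4 of the 5 IgG2b libraries and its other antibody libraries were above all 5 (log2 0.70, adjusted p = 0.452). Rtp4, known as a chaperone of receptors, had near-equal means, 34.1 ± 12.9 with the antibody and 32.3 ± 8.25 with IgG2b (log2 0.02, adjusted p = 0.993).

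Rsad2 (viperin), which makes a chain-terminating nucleotide, and Cmpk2, a mitochondrial nucleotide kinase, are neighbours on chromosome 12, read in opposite directions 12752 bases apart. Rsad2 was at 27.6, 41.2, 34.95, 31.3 and 30.4 with the antibody and 27.6, 13.01, 6.95, 15.9 and 24.7 with IgG2b, where antibody replicate 1 lay just below the highest IgG2b library (log2 1.0 ± 0.34, limma adjusted p = 0.410). Cmpk2 ranged from 362 to 449 with the antibody and from 364 to 408 with IgG2b, a log2 difference of 0.07 ± 0.10 (adjusted p = 0.879). The differences of these neighbours were not tested against each other. Mx1 stayed near 2 normalized counts in both groups, 2.37 ± 1.41 with the antibody and 2.32 ± 1.68 with IgG2b.

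Sp100, a component of nuclear bodies, was at 28.8, 39, 24.7, 16.8 and 25.5 with the antibody and 18.1, 18.6, 16.5, 17.6 and 9.66 with IgG2b. Antibody replicate 4 was the only antibody library inside the IgG2b range (log2 0.69, limma adjusted p = 0.537). Trim30a, a TRIM family protein, averaged 33.2 ± 11.5 with the antibody and 24.4 ± 8.75 with IgG2b (log2 0.42, adjusted p = 0.765). Ifi35, which forms complexes with Nmi, was at 43.1, 44.6, 29.8, 37.99 and 40.2 with the antibody and 14.7, 22.3, 32.1, 24.3 and 38.6 with IgG2b, with all antibody libraries above the IgG2b median (log2 0.61, adjusted p = 0.553). Ifi27 had by far the highest level per exon length of the members, 658 normalized counts per kb with the antibody and 550 with IgG2b, followed by Ifitm3 at 242 per kb with the antibody and 158 per kb with IgG2b. Its difference was small (log2 0.25, adjusted p = 0.637). Its relative Ifi27l2a averaged 13.2 ± 7.25 with the antibody and 7.79 ± 3.01 with IgG2b, and Xaf1, a partner of the apoptosis inhibitor XIAP, 31.3 ± 6.52 with the antibody and 24.96 ± 6.85 with IgG2b. Ifi44 stayed under the minimum, at a mean of 9.70 with the antibody and 6.11 with IgG2b.

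Members of the ADP-ribosylation group had differences of both signs. Parp14 averaged 43.9 ± 13.6 with the antibody and 29.8 ± 9.12 with IgG2b (log2 0.54, limma adjusted p = 0.647), and Parp9 61.4 ± 18.5 with the antibody and 48.7 ± 5.27 with IgG2b (log2 0.28, adjusted p = 0.756). Dtx3l, the ubiquitin ligase that pairs with Parp9, averaged 76.7 ± 18.5 with the antibody and 87.4 ± 5.39 with IgG2b (log2 -0.22, adjusted p = 0.777), the most negative difference of all tested members. The Parp9 and Dtx3l genes overlap by 682 bases on opposite strands. The library kit keeps the strand, per the labels, but whether the counting used it is not given in the sources used here.

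**Figure D2:**
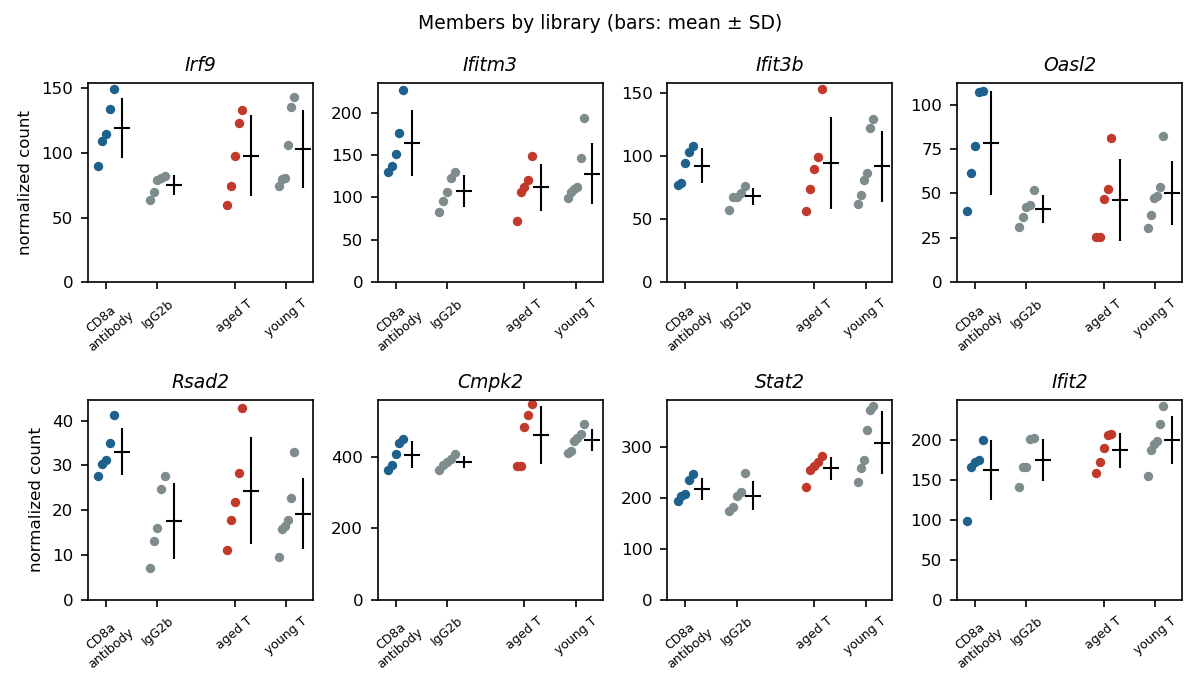
Normalized counts of 8 members in every library (points, sorted by value within a group), with the mean and SD of each group beside them as a cross and bar. The CD8a antibody points of Irf9, Ifitm3 and Ifit3b all lie above the IgG2b points, those of Cmpk2, Stat2 and Ifit2 overlap with them, and aged T and young T points overlap in all 8 panels. Depletion and transfer tables were normalized separately.

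The antibody libraries were not alike. The number of members above the median of all 10 libraries was 18, 25, 26, 20 and 15 of 29 in CD8a antibody replicates 1 to 5, and 9, 11, 8, 4 and 9 of 29 in IgG2b replicates 1 to 5. Thus even the lowest antibody library, replicate 5, which stood apart on the principal component, exceeded every IgG2b library in this count. Without replicate 5, 17 of 29 members were higher at an unadjusted p under 0.05 (7.22% of all genes), and without antibody replicate 2, 7 of 28 were (4.32% of all genes). With antibody replicate 4 left out, 6 members had groups that did not overlap (1.55% of all genes), as had 6 without replicate 5 (2.22%) and 5 without replicate 1 (1.06%). The share over all genes thus also grew when a library was left out.

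**Figure D3:**
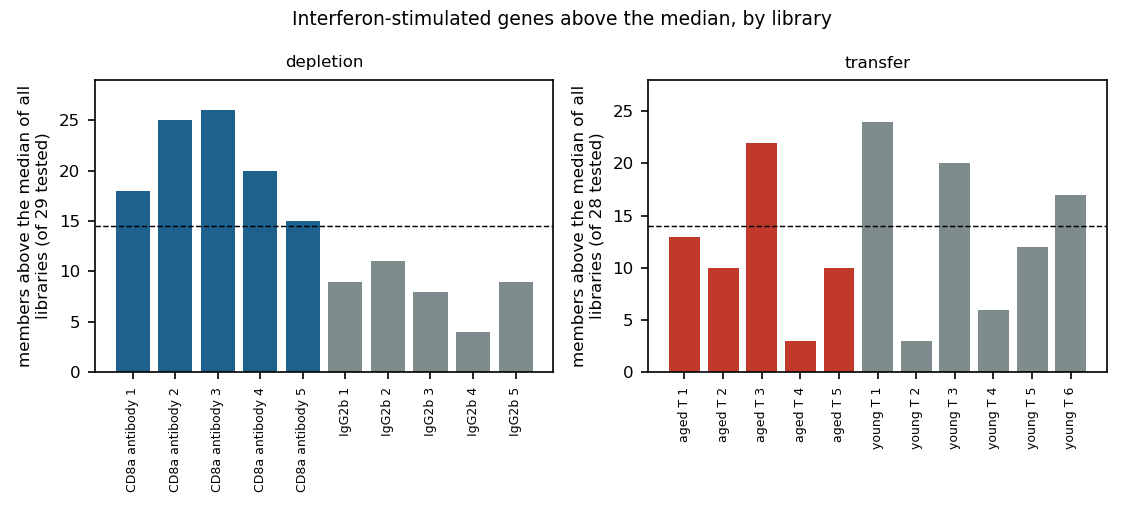
Number of tested members whose normalized count lies above the median of all libraries of the same table, per library, for the depletion (29 tested) and the transfer (28 tested). The dashed line marks equal numbers above and below. CD8a antibody libraries reach 15 to 26 and IgG2b libraries 4 to 11, while aged T libraries reach 3 to 22 and young T libraries 3 to 24.

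Markers of resident cells differed between the same groups. All 10 microglia markers were higher with the antibody, 4 of them at an unadjusted limma p under 0.05 (median log2 0.28), none of them at 0, and their summed normalized counts were 5116 to 6934 with the antibody and 4550 to 5621 with IgG2b. With the mean log2 level of these markers as a covariate, 24 of 29 members were higher, the members' median was 0.34, and 5 were higher at an unadjusted p under 0.05 (against 3.36% of all genes in that fit), namely Irf9, Ifitm3, Ifit3b, Ifi35 and Oas1a. Of these, Oas1a was tested only because its antibody mean was over the minimum. None of the 5 passed correction in that fit (limma adjusted p of 0.523 to 0.525). Irf9 had a log2 difference of 0.70 with the covariate, and Parp14 one of -0.02. Standard errors were larger with it, 0.227 against 0.166 for Irf9 and 0.464 against 0.338 for Rsad2. Rsad2 (log2 0.87) and Irf7 (0.93) thus no longer had an unadjusted p under 0.05 with little change, while Usp18 fell from 1.24 to 0.52. Markers of the ventral hippocampus were lower in 5 of 5 (median log2 -0.82, summed 1643 to 2446 with the antibody and 2398 to 3087 with IgG2b), and markers of the dorsal hippocampus higher in 4 of 4 (median 0.48, summed 1690 to 2860 with the antibody and 1432 to 2285 with IgG2b). Choroid plexus markers were higher in 9 of 9, with sums of 836 to 32190 with the antibody and 2042 to 27290 with IgG2b. With the mean of ventral minus that of dorsal markers as a covariate, 11 members were higher at an unadjusted p under 0.05 (median 0.66, against 6.44% of all genes), and with choroid plexus markers 11 were (median 0.48, against 4.70% of all genes). Oligodendrocyte markers were higher in 4 of 4 (summed 41890 to 82120 with the antibody and 39550 to 52060 with IgG2b), endothelial markers in 7 of 8 (summed 2207 to 3025 with the antibody and 2002 to 2445 with IgG2b), astrocyte markers in 5 of 5 (summed 16250 to 32910 with the antibody and 18210 to 21510 with IgG2b) and ependymal markers in 4 of 4 (summed 137 to 477 with the antibody and 115 to 310 with IgG2b). Fibroblast markers were higher in 4 of 5, but their sums, in which Dcn weighs most, were 323 to 882 with the antibody and 899 to 1230 with IgG2b, without overlap. Neuron markers were higher in 1 of 4 (summed 50210 to 73590 with the antibody and 69870 to 79300 with IgG2b). At an unadjusted limma p under 0.05, 4 ventral, 1 fibroblast and 1 neuron marker were lower (4.15% of all genes). Higher were 3 oligodendrocyte, 2 ependymal, 1 dorsal, 1 endothelial and 1 astrocyte marker, and 0 choroid plexus markers (4.31% of all genes). None of these lists held a marker at 0. The part of these cell types and regions in the members' differences was not tested beyond the covariates. In bulk tissue more cells of a type and more RNA per cell cannot be told apart.

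**Figure D4:**
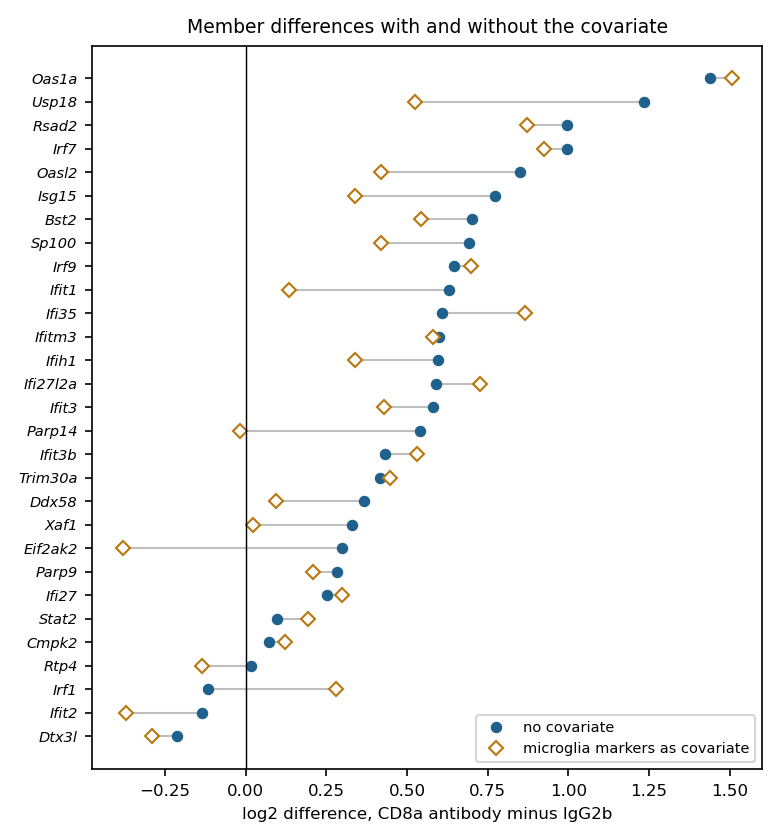
Log2 difference of each tested member in the depletion, CD8a antibody minus IgG2b, without a covariate (filled circles) and with the mean log2 level of 10 microglia markers as a covariate (open diamonds). Oas1a, Irf9, Ifitm3 and Ifit3b move by less than Usp18, Ifit1, Parp14 and Eif2ak2, which move left. Oas1a was tested only because its antibody mean was over the minimum.

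The rest of the pathway was read from lists. For the counts below, 49.6% of all genes tested in the depletion were higher. At an unadjusted limma p under 0.05, 4.31% of all genes were higher and 4.15% lower. Of 10 interferon genes none had more than a few reads. Ifng had 1 read over the CD8a antibody libraries and 6 over the IgG2b libraries. Ifnb1, Ifna1, Ifna2, Ifna4 and Ifna5 had 0 in both, and other Ifna genes were not in the list. Over a group, 3 reads would be 0.0547 CPM with the antibody and 0.0457 CPM with IgG2b (CPM, reads scaled to a common library total), a limit for counting error only. Of 8 tested receptor and kinase genes 7 were higher and 2 of them at an unadjusted limma p under 0.05, the receptor chains Ifnar2 (271 ± 17.7 with the antibody and 210 ± 31.3 with IgG2b) and Il10rb (128 ± 21.0 with the antibody and 87.5 ± 15.1 with IgG2b). Ifnar1 averaged 504 ± 86.5 with the antibody and 498 ± 37.05 with IgG2b. The receptor kinase Tyk2 had a log2 difference of 0.27. Ifngr1 averaged 209 ± 30.1 with the antibody and 187 ± 19.2 with IgG2b. Among 7 other interferon transcription factors 5 were higher and 0 had an unadjusted p under 0.05, the smallest p being those of Irf8 (log2 0.31), Nmi (0.47) and Stat3 (0.24). Among 16 nucleic acid sensors and adaptors 11 were higher, again with 0, the smallest p being those of Unc93b1 (log2 0.27), Adar (-0.20) and Tlr3 (0.28). Of 7 negative regulators 5 were higher, Ptpn6 (log2 0.45) alone at an unadjusted p under 0.05, ahead of Pias1 (-0.14) and Socs3 (0.38). Of 26 tested interferon-stimulated genes outside the members, 24 were higher, 6 of them at an unadjusted p under 0.05 (median log2 0.30). The smallest p among them was that of Lgals9, a galectin, at 112 ± 11.5 with the antibody and 71.0 ± 7.22 with IgG2b, called by DESeq2 (adjusted p = 0.0200) and not by limma (adjusted p = 0.233). Next came Uba7, the enzyme that activates Isg15 for conjugation (log2 0.88), whose groups did not overlap, and Slfn5 (log2 0.87). The interferon-inducible GTPases, 14 tested, were all higher, 6 at an unadjusted p under 0.05, with a median of 0.64, led by Gbp3 (log2 1.40), Gbp2 (1.11) and Gbp5 (1.27).

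In the transfer the same members showed no common shift toward aged T recipients. Of 28 tested, 10 were higher in aged T than in young T recipients (35.7%, against 49% of all 14162 genes), and the median log2 difference was -0.10 against -0.005 over all genes. At an unadjusted limma p under 0.05, 1 member was higher (against 4.29% of all genes) and 0 were lower (3.96% of all genes). At an adjusted p under 0.05, 0 passed, as for all genes (0%), and DESeq2 called 0 higher and 0 lower, against 0% of all genes in each direction. No member had groups that did not overlap in either direction, against 0.459% of all genes higher and 0.24% lower. Of all 34 members the aged T mean was the higher in 10, a count whose share over all genes is not given.

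Ifi27 was the member with the unadjusted p under 0.05, at 602, 625.4, 501, 458 and 703 normalized counts in aged T recipients, against 360 to 559 (median 437) in young T recipients. All 5 aged T libraries lay above the young T median and 3 above the young T range (log2 0.37 ± 0.14, limma adjusted p = 0.600). Irf1 was at 69.03, 89.1, 64.2, 57.8 and 82.4 in aged T recipients, against 66.3 to 104 (median 93.3) in young T recipients, all aged T libraries lying below the young T median (log2 -0.32, adjusted p = 0.600). Stat2 was at 221, 255, 269, 282 and 262 in aged T recipients, against 230 to 381 (median 303) in young T recipients, also with every aged T library below the young T median (log2 -0.24, adjusted p = 0.630). Ifi35 was at 26.5, 39.2, 29.3, 19.3 and 43.5 in aged T recipients, against 6.95 to 44.9 (median 21.5) in young T recipients (log2 0.54, adjusted p = 0.697), and without young T replicate 5 its difference was 0.25.

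Several members that were higher with the antibody had lower means in aged T than in young T recipients. Usp18 was at 6.62, 7.13, 25.9, 9.13 and 0.906 in aged T recipients, against 7.94 to 29.1 (median 13.8) in young T recipients (log2 -0.93 ± 0.56, limma adjusted p = 0.649). It was tested here only because its young T mean was over the minimum. Sp100 was at 32.1, 9.8, 19.1, 5.07 and 22.6 in aged T recipients, against 11.6 to 53.4 (median 28.2) in young T recipients (log2 -0.71, adjusted p = 0.668). Both had overlapping groups with a wide spread. Isg15 was at 16.1, 15.1, 20.3, 4.06 and 17.2 in aged T recipients, against 8.23 to 44.7 (median 15.6) in young T recipients (log2 -0.38, adjusted p = 0.820). Ifitm3 was at 120, 149, 107, 72 and 112 in aged T recipients, against 99.9 to 194 (median 111) in young T recipients (log2 -0.19, adjusted p = 0.794). Neither separated the groups, and 1 library moved most of these values. Without aged T replicate 4 the difference was -0.01 for Isg15, -0.36 for Sp100 and -0.04 for Ifitm3, without aged T replicate 5 it was -0.42 for Usp18, and leaving out young T replicate 1 gave -0.11 for Isg15 and -0.06 for Ifitm3. Differences between the 2 experiments were not tested, because the tables were normalized separately and the mice differ in age and treatment.

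Irf9 had nearly equal means in the transfer, 97.5 ± 31.2 in aged T recipients (SD, n = 5), against 103 ± 29.98 in young T recipients (SD, n = 6). Its libraries were at 133, 73.9, 123, 59.8 and 97.8 in aged T recipients, against 74.7 to 143 (median 93.03) in young T recipients (log2 -0.09, limma adjusted p = 0.930). Ifit3 was at 137, 115, 271, 103 and 84.2 in aged T recipients, against 105 to 218 (median 127) in young T recipients (log2 -0.13, adjusted p = 0.917). The highest value of this gene was that of aged T replicate 3, the same library in which Ifit3b was highest. Ifit3b was at 99.3, 89.98, 153, 74.02 and 56.2 in aged T recipients, against 62.02 to 130 (median 83.7) in young T recipients (log2 0.01, adjusted p = 0.992). Bst2 was at 76.6, 55.2, 60.8, 25.4 and 85.2 in aged T recipients, against 36.8 to 83.5 (median 46.5) in young T recipients (log2 0.15, adjusted p = 0.912). These 3 genes overlapped over most of their ranges. Irf7 was at 30.3, 13.4, 34.9, 14.2 and 14.5 in aged T recipients, against 10.9 to 33.02 (median 16.3) in young T recipients (log2 0.21, adjusted p = 0.888, and 0.01 to 0.39 with 1 library left out), and Socs1 at 4.73, 7.13, 3.38, 3.04 and 7.25 in aged T recipients, against 0 to 15.9 (median 5.57) in young T recipients, under the minimum.

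Within each transfer group the members varied by library. The number above the median of all 11 libraries was 13, 10, 22, 3 and 10 of 28 in aged T replicates 1 to 5, and 24, 3, 20, 6, 12 and 17 of 28 in young T replicates 1 to 6. High and low libraries thus stood in both groups. Summed microglia markers were 4879 to 7260 in aged T recipients, against 5000 to 7005 in young T recipients. Aged T replicate 3 and young T replicate 3 had the highest sums of their groups. Young T replicate 1, with 24 of 28 members above the median, had a sum of 6036. Aged T replicate 5, with 10 of 28, had one of 6336. A relation between sums and member counts by library was not tested. Choroid plexus markers, higher in 9 of 9 in aged T recipients, summed to 2273 to 53960 with aged T cells, against 2895 to 34660 with young T cells. The 10 listed interferon genes had 0 reads in aged T recipients, against 6 in young T recipients, all of Ifne.

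Presence of the ISRE core did not separate the members in the depletion. Of the 12 members with a window and an unadjusted p under 0.05, 7 had a core, and of the 11 with a window and a higher p, 6 had one. The median log2 difference was 0.60 over the 13 tested members with a core and 0.47 over the 10 without. Among the stretches printed above, Oas1a, Rsad2, Bst2, Ifit3 and Ifit3b had an unadjusted p under 0.05, Isg15, Ifit1, Trim30a and Stat2 had a higher p, and Socs1 was not tested.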

How the data were processed

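The 34 members, the pathway and marker lists and the rule for which genes are given library by library were chosen with earlier results of these data known. That rule took the 14 members with the smallest p in the depletion, the 6 in the transfer, 10 fixed members, and 3 genes of each pathway list. A gene that was to be named is not reported here.

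STAR, RSEM and DESeq2 are named, with no roles, in the submitters' processing notes, as is the mm10 build. Per the file headers and the values, the authors deposited 1 table per experiment with a normalized count signal per gene and library (reads over a size factor), and their DESeq2 log2 fold change, signed as control over treated, with p-values and a Wald statistic, a score that the authors deposited per the file headers. These deposited statistics were copied but not used as results. Every value was a whole multiple of 1 step per library (100% of values, relative tolerance 1e-06), so whole reads were recovered. An edgeR test had been set for raw counts. As the tables hold normalized values, limma's trend method (version 3.58.1 in R 4.3.3) was applied to log2(normalized count + 1), each experiment alone, without covariates, for genes with a mean of at least 10, with Benjamini-Hochberg adjustment over all genes tested and calls at an adjusted p under 0.05. Quasi-likelihood edgeR 4.0.16, limma-voom and DESeq2 1.42.0 on the recovered reads, other scalings, pseudocounts and filters, marker covariates and leaving out each library were alternatives. Replicates were numbered in the order of the sample records and pair no samples. No pair of libraries within a group was a duplicate: the smallest chi-square per degree of freedom was 7.11.

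Promoter sequences were RefSeq's (GRCm38.p6), and gene positions and transcripts GENCODE M21's (mm10). Identity between Ifit genes was taken over the longest open reading frames, since protein sequences were not used here. For 21 of the 30 member windows the first 30 transcribed bases were found in a transcript. The fit was also run on simulated data with known changes, and the outcome is not given here. Read totals limit precision for counting error only.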

Additional observations from a re-analysis of the deposited data

Results flagged for a closer look

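In each group of 5 or 6 libraries the highest and lowest value of each member was compared with the rest of its group by Dixon's ratio of the gap to the range. Of 136 groups looked at, 9 passed the 95% limit, where chance alone gives about 1 in 20.

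In the depletion, Irf7 was at 80.2 normalized counts in CD8a antibody replicate 2, with 25.7 in the nearest antibody library, the library without which fewer members had an unadjusted p under 0.05. Zbp1 was at 9.29 in IgG2b replicate 2, with 2.60 in the nearest, and Sp100 was lowest in IgG2b replicate 5 at 9.66, with 16.5 in the nearest.

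In the transfer, aged T replicate 3 was high for Ifit3 at 271 (nearest 137) and for Rtp4 at 43.9 (nearest 20.3). Young T replicate 1 was high for Ifi44 at 28.2 (nearest 11.3), for Mx1 at 17.5 (nearest 3.54) and for Zbp1 at 13.6 (nearest 2.98). Zbp1 was at 2.84 in aged T replicate 1 and at 0 in the other aged T libraries.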

How the results depend on the processing

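No paired analysis was possible because the labels name no pairs, and replicate numbers follow only the order of the sample records. In the depletion, DESeq2 called 1 member (Irf9, log2 0.67, adjusted p = 0.0405, the only named member that changed its side of the threshold). With a mean of at least 50, 16 members were tested, 13 higher, 7 at an unadjusted p under 0.05, with a median of 0.33. The share over all genes was not taken at that filter. With the microglia covariate 5 had an unadjusted p under 0.05 (3.36% of all genes), and the median was 0.34. Among the 5 was Oas1a, tested only through its antibody mean. Standard errors were larger in that fit, as for Irf9 (0.227 against 0.166). The cause of the change with the covariate was not tested. Leaving out each library gave 7 (without CD8a antibody replicate 2) to 17 members higher at an unadjusted p under 0.05, against 3.09 to 7.22% of all genes. In these fits 0 were lower (2.87 to 5.97% of all genes), 0 were called and 23 to 27 were above 0. Medians were 0.445 to 0.647, and 3 to 6 members were without overlap, against 1.03 to 2.22% of all genes. In the transfer, 2 members were higher at an unadjusted p under 0.05 with no filter, where the share over all genes was not taken. With a mean of at least 50, 5 of 16 were above 0. Leaving out each library gave 0 (without aged T replicate 5) to 1 higher at an unadjusted p under 0.05, against 2.12 to 6.77% of all genes. Lower were 0 to 2 (2 without aged T replicate 3, 1 without aged T replicate 2, young T replicate 2 or young T replicate 5), against 2.12 to 6.01% of all genes. Between 5 (without aged T replicate 3) and 12 were above 0, and medians were -0.18 to -0.02. Small transfer differences changed sign: Ifit3b to -0.071 with the microglia covariate, and, leaving out each library, Ifit3b from -0.178 to 0.179, Irf9 from -0.219 to 0.067, Ifit3 from -0.391 to 0.028 and Bst2 from -0.003 to 0.425. With promoter windows of 250 bases before the start only, 10 members had an ISRE core and 5 a GAS. Depth limits the weak members, where a normalized count of 10 is about 10 reads a library. Among values of single members, 160 depletion and 134 transfer values kept their direction and side of the threshold when a library was left out. Another 9 transfer values changed sign. Under the other alternatives 167 depletion and 137 transfer values kept both, 1 transfer value changed sign and 1 depletion value became called. No member was called in the main fit, so keeping the side of the threshold means only that it stayed uncalled.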
